A study of Mus musculus with 5 samples.

Results

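The cells described here are day 1 mesenchymal progenitors that carried transcripts of Il1rl1 or Serpinb2, 425 of the 3551 cells left after exclusions at that time (11.97%, Clopper-Pearson 95% interval 10.9 to 13.1%) and of the 17085 cells kept over the series. They were chosen by their measured counts: a member held at least 3 unique molecular identifiers (UMIs, each standing for 1 captured transcript) of Il1rl1 and Serpinb2 together. Of 4820 barcodes in the day 1 library, 4816 were kept, each with 500 or more genes and no more than 10% mitochondrial UMIs. From these, 280 cells with at least 5 summed UMIs of Tnmd, Fmod, Kera and Chad (tenocyte genes, 183 cells) or of Rgs5, Kcnj8, Abcc9 and Higd1b (mural cell genes, 97 cells) were set aside, as were 985 cells with at least 30 Cxcl5 UMIs per 10000. The 3126 cells that stayed below the limit are called the other cells.

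The series followed muscle mesenchymal progenitors through regeneration in 5 single-cell libraries, taken at days 1, 2, 4 and 14 after notexin and, as the quiescent group, without injury. Notexin is a snake venom phospholipase that destroys muscle fibres and spares much of the tissue around them. Whole hindlimb muscle of C57BL/6J mice, which entered the protocol at 8 weeks of age, was the source of every library. Each group was 1 library, and the number of mice behind it is not given in the labels. All mice, the uninjured ones included, were Hic1CreERT2/CreERT2;Rosa26LSLtdTomato/+ and had received 2.5 mg of tamoxifen in 100 uL of sunflower oil on each of 5 days, with a washout of 10 days. Recombination through Hic1 switches on the red protein tdTomato in cells that express this repressor and in their descendants, so the sorted cells were those labelled before injury and their progeny. Both Hic1 alleles carried the CreERT2 insertion in all 5 groups, and no group without it was analysed here. Members and other cells came from the same day 1 library, so no test was possible between them: ratios below carry exact conditional binomial 95% intervals, shares carry Clopper-Pearson intervals and levels carry Poisson intervals, and all of these cover counting error only.

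Il1rl1 encodes ST2, the receptor for the alarmin IL-33, which signals with the co-receptor IL-1RAcP (Il1rap) through Myd88 to NF-kB. It is best known from mast cells, group 2 innate lymphoid cells and regulatory T cells, and it also has a fibroblast transcript that encodes a secreted decoy form. Serpinb2 encodes plasminogen activator inhibitor 2, a serpin that stays largely inside the cell and is induced by inflammatory stimuli in macrophages, keratinocytes and fibroblasts. In muscle, mesenchymal progenitors are a main source of IL-33.

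Both defining genes lie on chromosome 1 (GRCm38, GENCODE M21): Il1rl1 (ENSMUSG00000026069) at chr1:40429570-40465415 on the plus strand, next to its paralogs Il1rl2 and Il1r1, and Serpinb2 (ENSMUSG00000062345) at chr1:107511423-107535478 on the plus strand. The 250 bases before their start sites, and before that of the chemokine gene Cxcl3 (chr5:90786103-90789600, plus strand), which had the highest ratio among the other genes named, are shown 5′ to 3′ on the plus strand from the RefSeq promoter table (GRCm38.p6). They were searched on both strands for an AP-1 motif (TGANTCA), an NF-kB motif (GGGA and TTCC with any 2 bases between them) and a TATA box (TATAAA), and a match is in capitals.
Il1rl1, upstream start site, chr1:40429320-40429569: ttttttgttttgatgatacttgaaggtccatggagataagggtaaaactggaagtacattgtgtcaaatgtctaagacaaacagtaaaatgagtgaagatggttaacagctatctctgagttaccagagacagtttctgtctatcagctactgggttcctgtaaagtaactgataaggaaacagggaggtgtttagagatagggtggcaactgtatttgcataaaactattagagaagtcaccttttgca
Il1rl1, downstream start site, chr1:40439379-40439628: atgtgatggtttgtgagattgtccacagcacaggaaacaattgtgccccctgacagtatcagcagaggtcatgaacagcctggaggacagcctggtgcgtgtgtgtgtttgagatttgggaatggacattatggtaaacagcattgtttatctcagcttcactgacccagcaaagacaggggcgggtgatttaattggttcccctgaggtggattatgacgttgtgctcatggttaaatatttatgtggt
Serpinb2, chr1:107511173-107511422: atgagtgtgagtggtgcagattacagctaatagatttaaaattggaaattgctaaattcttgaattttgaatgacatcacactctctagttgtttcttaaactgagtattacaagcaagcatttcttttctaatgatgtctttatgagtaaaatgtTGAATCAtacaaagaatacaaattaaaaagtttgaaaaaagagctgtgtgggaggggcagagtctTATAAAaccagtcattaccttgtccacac
Cxcl3, chr5:90785851-90786100: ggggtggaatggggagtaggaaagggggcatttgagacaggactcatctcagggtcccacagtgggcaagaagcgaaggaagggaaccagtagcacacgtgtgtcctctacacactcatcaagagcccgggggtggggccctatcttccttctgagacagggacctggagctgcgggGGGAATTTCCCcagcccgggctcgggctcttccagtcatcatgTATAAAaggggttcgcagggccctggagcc

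Neither Il1rl1 window held any of the 3 motifs, and the counts of 3' ends cannot tell the 2 start sites of Il1rl1 apart. The Serpinb2 window held the AP-1 motif with its first base 94 bases before the start and a TATA box 29 bases before it. From a second Serpinb2 start site in the promoter table, whose window is not shown, the same matches lay 181 and 116 bases before the start. The Cxcl3 window held a pair of overlapping NF-kB matches, 73 and 72 bases before the start, and a TATA box 30 bases before it. Of all 32851 promoters in the table, 6.75% held the AP-1 motif, 1.21% the NF-kB motif and 12.4% the TATA box in windows of this length. The 105 promoters of genes called higher in the members (80 of 111 genes matched the table) held them in 12.4%, 2.86% and 7.62%. The 378 promoters of genes called lower (280 of 389 matched) held them in 6.88%, 1.59% and 7.94%. Over the promoters of all genes tested the shares were 4.55%, 1.26% and 6.87%. A match is a run of letters and not a bound site. Fosl1, which encodes an AP-1 subunit and is among the marker genes of these cells, is at chr19:5447547-5455946.

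Most members carried only 1 of the 2 genes. Il1rl1 was detected in 372 of the 425 and Serpinb2 in 119. Cells with Il1rl1 alone made up 306 (72.0%), cells with Serpinb2 alone 53 (12.5%) and cells with both 66 (15.5%), of which 30 had at least 3 UMIs of each. Summed UMIs of the 2 genes had a median of 9 and ran up to 107. In the whole set of 3551 cells, Serpinb2 was found in 11.8% of cells with Il1rl1 (interval 9.33 to 14.7%) and in 3.31% of those without it (2.70 to 4.02%). With every cell thinned to 2500 UMIs, which removes differences in depth, these shares were 7.36% (4.90 to 10.5%) and 2.27% (1.78 to 2.86%). Serpinb2 was thus more frequent in cells with Il1rl1 than in cells without it, beyond counting error, while most cells with either gene showed no UMI of the other.

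**Figure D1:**
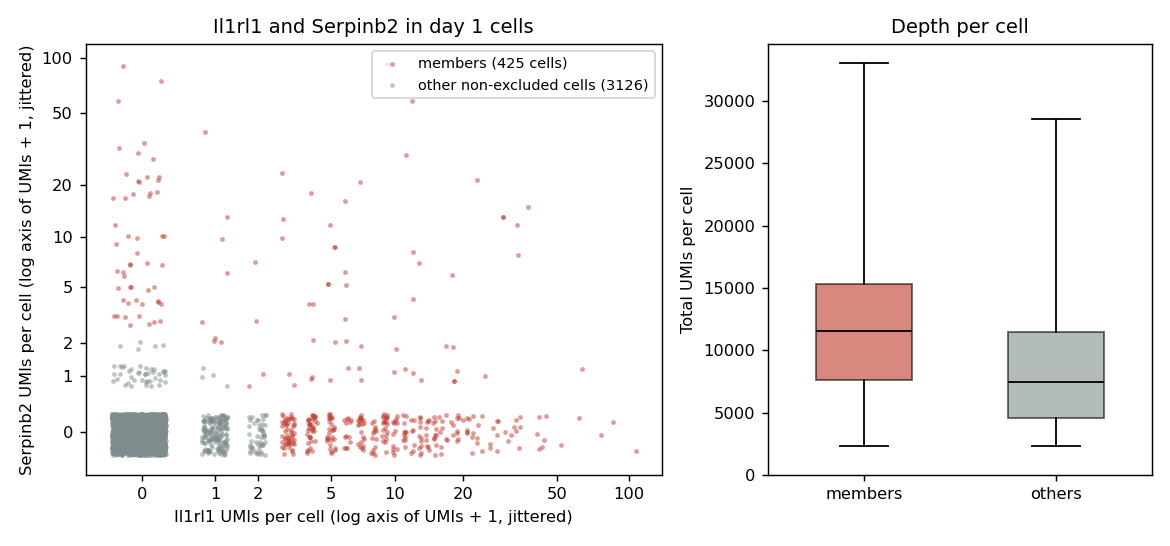
Left, Il1rl1 UMIs (x axis) and Serpinb2 UMIs (y axis) in each non-excluded day 1 cell, on log axes of UMIs + 1 with jitter, members in red and other cells in grey. Right, total UMIs per cell in members and other cells as boxes (median and quartiles, whiskers to the lowest and highest cell); most members sit along the 2 axes, and their median depth of 11556 UMIs lies above the 7453.5 of the other cells.

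At the limit of the rule, 65 members had exactly 3 UMIs and 58 other cells had exactly 2, while 2861 other cells had none and 207 had 1. The rule counts absolute UMIs, and members were deeper than the other cells: the median was 11556 UMIs in members and 7453.5 in other cells, and the median number of genes was 2915 in members and 2327.5 in other cells. Mitochondrial UMIs had a median of 1.53% in members and 1.84% in other cells. Of the members, 12.2% lay above the 95th percentile of UMIs of the library, against 2.98% of the other cells. Because depth moves with membership, each ratio below was also computed against other cells weighted to the members' distribution of depth, called the depth-matched ratio, and the part of depth in any one result was not tested further. Scrublet made no automatic call in this library, and an alternative that drops its highest scores would remove 2.59% of the members and 3.87% of the other cells.

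The members carried the genes of mesenchymal progenitors, and most defining genes of other cell types were at or near 0. All 9 progenitor markers were detected, every member had at least 3 UMIs of them, and 5 of the 8 tested were lower in members than in other cells. Pdgfra, the receptor that marks fibro-adipogenic progenitors, stood at 210.3 CPM (counts per 1000000) in members and 245.3 CPM in other cells, and the surface antigen gene Ly6a at 1916 CPM in members and 2370.0 CPM in other cells. The lineage reporter tdTomato stood at 1204 CPM in members and 1384 CPM in other cells, and the driver Hic1 at 10.1 CPM in members and 12.2 CPM in other cells. None of these 4 reached a 1.5-fold difference. Cells known for ST2 were looked for by their own genes. All 7 mast cell markers (Kit, Cpa3, Fcer1a, Ms4a2, Tpsb2, Mcpt4 and Cma1) were at 0 in the members, as were Ptprc, Laptm5, Coro1a and Tyrobp of the 6 leukocyte genes, Cd3e, Cd3g, Cd4, Foxp3, Il7r and Areg of the 8 genes of T and innate lymphoid cells, 5 of 7 neutrophil genes and 5 of 7 myogenic genes. The summed leukocyte genes came to 1.01 CPM in members and 1.22 CPM in other cells. Epithelial keratin and junction genes, which matter because Serpinb2 is a keratinocyte gene, came to 0.201 CPM in members and 0.115 CPM in other cells. In members the summed levels were 10.3 CPM for 9 macrophage genes, 9.66 CPM for 7 endothelial genes, 4.02 CPM for 7 mural genes, 7.85 CPM for the myogenic genes, 0.805 CPM for 6 Schwann cell genes, 1.41 CPM for 6 adipocyte genes and 0.604 CPM for the neutrophil genes. In other cells they were 12.5 CPM (macrophage), 10.3 CPM (endothelial), 9.92 CPM (mural), 21.7 CPM (myogenic), 4.08 CPM (Schwann cell), 4.85 CPM (adipocyte), 1.41 CPM (neutrophil) and 0.0763 CPM (mast cell). Of 3 lists with a higher sum, most came from genes not restricted to the type. The 7 tenocyte genes summed to 166 CPM in members and 180.2 CPM in other cells, with Thbs4 at 156 CPM in members and 173 CPM in other cells. The 6 perineurial genes summed to 23.3 CPM in members and 25.2 CPM in other cells, nearly all Slc2a1, a glucose transporter. The lymphoid genes summed to 33.8 CPM in members and 62.7 CPM in other cells, all from Rora and Gata3 in members.

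All 5 marker genes given for these cells were higher in the members. They were chosen with earlier results of these data known, so this describes the cells and is no separate evidence. For Il1rl1 (842 CPM in members, 10.3 CPM in other cells) and Serpinb2 (271 CPM in members, 2.06 CPM in other cells) the rule itself sets the difference. Cxcl3, a chemokine that draws neutrophils, stood at 123 CPM in members and 24.2 CPM in other cells, 5.09-fold higher (4.55 to 5.70). Hmga2, a chromatin protein of embryonic and proliferating mesenchyme (chr10:120361275-120476469), stood at 44.9 CPM in members and 11.8 CPM in other cells, 3.80-fold higher (3.19 to 4.53). Fosl1 stood at 96.0 CPM in members and 47.9 CPM in other cells, 2.00-fold higher (1.80 to 2.23). The depth-matched ratios were 4.59 for Cxcl3, 3.21 for Hmga2 and 1.74 for Fosl1. Cxcl3 was uneven: 18.6% of members and 4.54% of other cells had a UMI of it, and 1 cell gave 9.0% of the members' counts. After thinning, 10.2% of members, 2.74% of other cells and 10.4% of cells rich in Cxcl5 had a Cxcl3 UMI. The share was 2.38% of mural marker cells, given for comparison. The thinned shares for Fosl1 were 19.7% of members, 8.96% of other cells, 17.9% of cells rich in Cxcl5 and 3.57% of mural marker cells.

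Over all genes, those lower in the members outnumbered those higher. A gene was called when its ratio of summed CPM was at least 1.5 and the higher group had at least 20 CPM. Of 4971 genes at that level, 113 were called higher in members (2.27%, Il1rl1 and Serpinb2 included) and 389 lower (7.83%), and the median log2 ratio was 0.01. Against depth-matched other cells 4899 genes were tested. Of these 72 were higher and 225 lower, of which 60 and 219 were also called in the unmatched comparison. The members were chosen on genes of these same cells, so these counts describe the contrast and are not evidence that the members form a type.

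The genes highest in the members after Cxcl3 form no single pathway, and several encode enzymes or secreted proteins. Slco2a1, a prostaglandin transporter, stood at 132 CPM in members and 47.0 CPM in other cells, 2.82-fold higher (2.56 to 3.10), and Ptgis, prostacyclin synthase, at 576 CPM in members and 212 CPM in other cells, 2.72-fold higher (2.60 to 2.85). Wnt2, a Wnt ligand, was 2.71-fold higher (146 CPM in members, 53.9 CPM in other cells), and Dkk2, a secreted Wnt modulator, 2.17-fold higher (61.8 CPM in members, 28.4 CPM in other cells). Penk, the enkephalin precursor, was 2.66-fold higher, and Aldh1a3, a retinoic acid synthesising enzyme, stood at 642 CPM in members and 300.3 CPM in other cells, 2.14-fold higher (2.05 to 2.23). Ptgis was the only called gene of 5 tested in the prostaglandin list; Ptgs2, the inducible cyclooxygenase, was 1.26-fold higher and Ptges, prostaglandin E synthase, stood at 42.3 CPM in members and 60.04 CPM in other cells. The depth-matched ratios were 2.48 for Slco2a1, 2.35 for Ptgis, 2.27 for Wnt2, 2.71 for Penk and 1.99 for Aldh1a3. In the day 1 tenocyte marker cells, Ptgis (631 CPM), Penk (701 CPM) and Dkk2 (92.0 CPM) stood above the members. Slco2a1 (51.2 CPM), Wnt2 (18.0 CPM) and Aldh1a3 (6.23 CPM) stood below the members there. Oaf, Tuba1c (a tubulin) and Gap43 (a growth cone protein) completed the 15 highest with Hells and Mcm5 and with Sbsn and Krtdap, both described below.

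**Figure D2:**
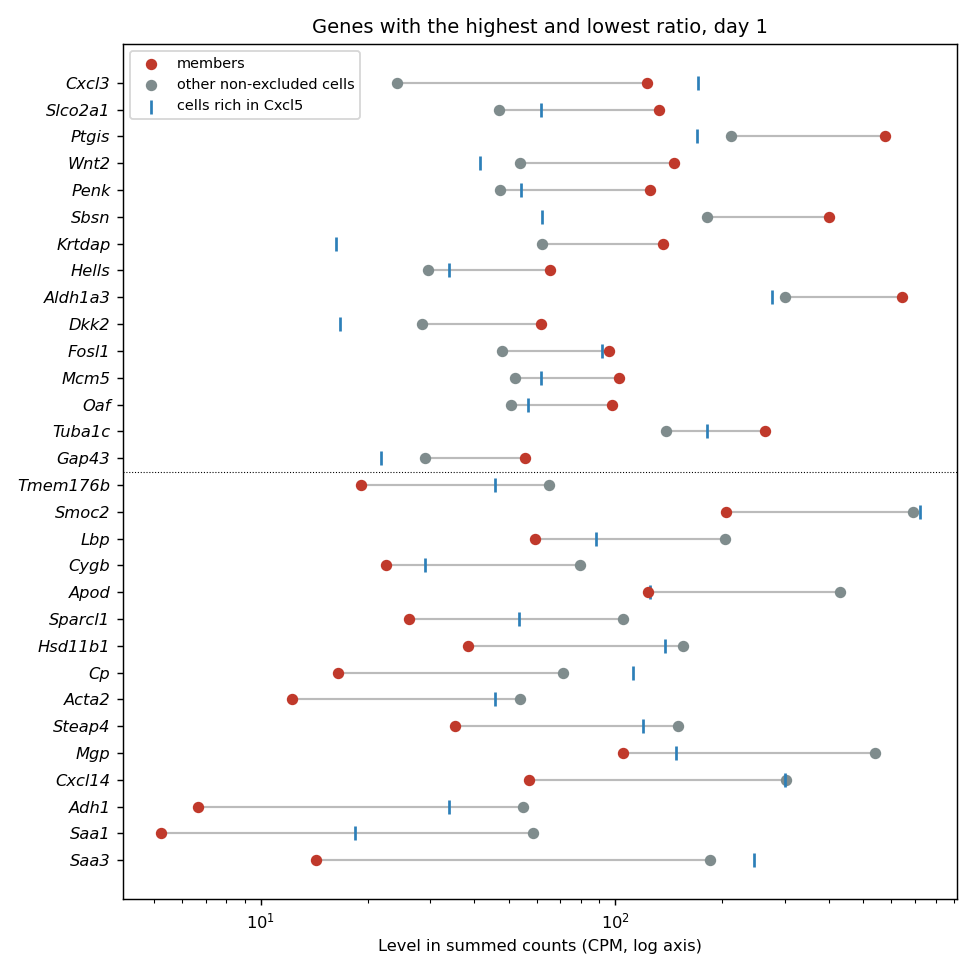
Level (CPM of summed counts, log x axis) of the 15 genes of highest and the 15 of lowest ratio in members (red), other cells (grey) and cells rich in Cxcl5 (blue ticks), with the genes of the rule left out. Each gene had at least 50 CPM in members or in other cells. Cxcl3 is at 123 CPM in members, 24.2 CPM in other cells and above both in cells rich in Cxcl5, whereas Ptgis and Wnt2 are higher in members than in either of the other 2 groups.

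Among the genes lowest in the members, with the same limit of 50 CPM, were acute-phase genes and genes of resident stromal cells. Saa3, a serum amyloid A gene, stood at 14.3 CPM in members and 185 CPM in other cells, 12.9-fold lower (10.2 to 16.6). Few cells carried it, 1.18% of members and 5.02% of other cells, and 1 member gave 39.4% of the members' counts. Saa1 was at 5.23 CPM in members and 58.5 CPM in other cells, and reads of Saa1 may be split with close copies of that gene. The genes lower in more cells were Adh1 (6.64 CPM in members, 55.0 CPM in other cells), Cxcl14 (56.9 CPM in members, 303 CPM in other cells), Hsd11b1, which regenerates active glucocorticoid (38.4 CPM in members, 155 CPM in other cells), and Smoc2, a matricellular protein (206 CPM in members, 693 CPM in other cells). They were 8.28-fold (5.87 to 12.1), 5.32-fold (4.73 to 6.02), 4.03-fold (3.49 to 4.69) and 3.37-fold (3.16 to 3.59) lower. Depth-matched, they were 5.82-fold, 4.51-fold, 3.29-fold and 2.94-fold lower. Mgp, a matrix Gla protein, was 5.13-fold lower and 2.77-fold lower when depth-matched, with 28.3% of the members' counts from 1 cell, and for Acta2, smooth muscle actin, 1 cell gave 41.0% of the members' counts. Steap4, Cp, Sparcl1, Apod, Cygb, Lbp and Tmem176b were the rest of the 15 lowest, 3.41-fold (Tmem176b) to 4.30-fold (Cp) lower.

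Levels of these genes also differed among cells by the number of Il1rl1 and Serpinb2 UMIs, on both sides of the limit. For several lower genes, Dcn and Smoc2 among them, the largest gap was between other cells with none and other cells with 1 or 2. Ptgis stood at 198 CPM in cells with none, 333 CPM with 1 or 2, 443 CPM with 3 to 5, 554 CPM with 6 to 10 and 690.3 CPM above 10. Hmga2 stood at 10.4, 24.3, 27.9, 34.3 and 63.6 CPM over the same classes, and Dcn, the proteoglycan decorin, at 8017, 4086, 3691, 2669 and 2805 CPM. In the cells nearest to the limit, Smoc2 stood at 222 CPM in members with exactly 3 UMIs and 198 CPM in other cells with exactly 2, and Ptgis at 518 CPM in these members and 359 CPM in these other cells. Cxcl3 stood at 64.6 CPM in these members and 152 CPM in these other cells, and Mgp at 373 CPM in these members and 94.3 CPM in these other cells, both opposite to the whole contrast. With 65 members and 58 other cells, 1 cell can set such a level. The highest of all other cells held 66 Cxcl3 UMIs, and the highest of all members held 148 Mgp UMIs. Whether these cells lie at the limit was not tested. The other cells with 1 or 2 UMIs were deeper (median 10037 UMIs) than those with none (7193), as were the members with more than 10 (12560).

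**Figure D3:**
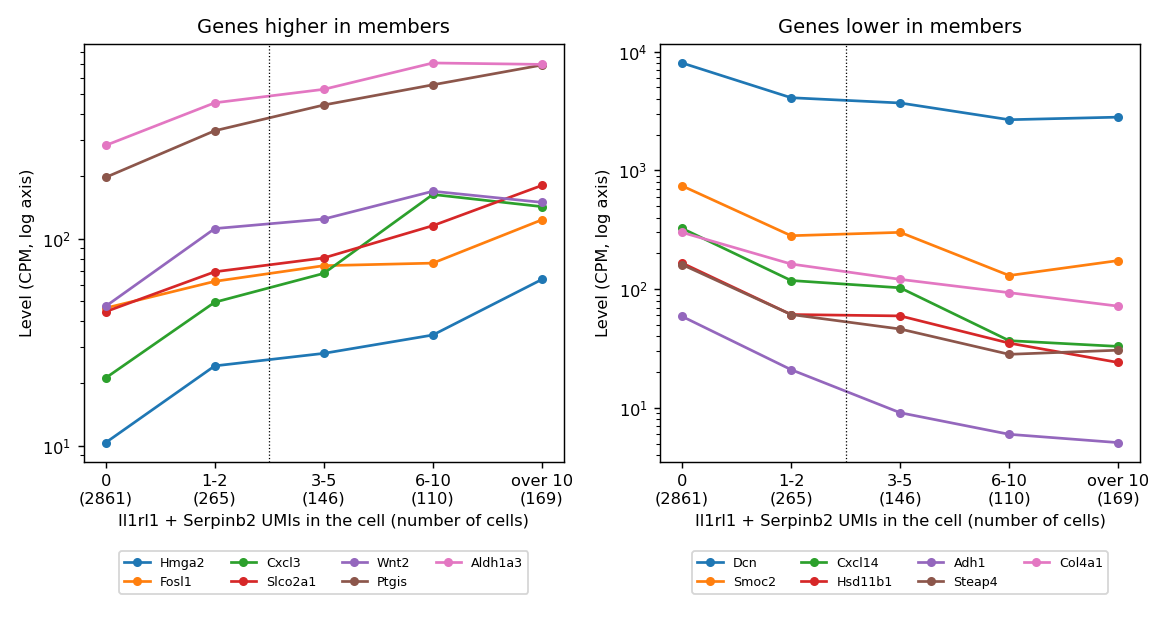
Level (CPM, log y axis) of 7 genes higher in members (left) and 7 lower (right) by the summed Il1rl1 and Serpinb2 UMIs of the cell (x axis, number of cells in brackets), with the limit of the rule as a dotted line. Most lines slope on both sides of the limit, and Hmga2 is at 10.4 CPM in cells with none and 63.6 CPM in cells with more than 10.

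The gene of the ST2 ligand was level between members and other cells, and apart from Il1rl1 itself no gene tested in its axis was called. Il33 stood at 155 CPM in members and 156 CPM in other cells, a ratio of 0.99 (0.92 to 1.07), and was found in 42.1% of members and 42.8% of other cells. Il1rap, the obligate co-receptor, was low, with 21 UMIs (4.23 CPM) in members and 206 UMIs (7.86 CPM) in other cells, 1.86-fold lower (1.19 to 3.07) but under the level needed for a call. Myd88, the adaptor, stood at 62.2 CPM in members and 72.7 CPM in other cells. Of the 20 genes in the list of the IL-33 and IL-1 axis, which leaves out Il1rl1, 7 reached 20 CPM and none was called; the paralog Il1rl2 had a ratio of 1.18 (0.95 to 1.46) and Il1r1 stood at 57.5 CPM in members and 82.2 CPM in other cells. Of 10 NF-kB target genes tested, 1 was called: Nfkbia, the inhibitor induced by NF-kB, was 1.68-fold higher (1363 CPM in members, 810.4 CPM in other cells) and 1.69-fold when depth-matched. The other 9 included Icam1 at 74.9 CPM in members and 106 CPM in other cells and Nfkb1 at 93.6 CPM in members and 68.1 CPM in other cells. The list's median log2 ratio was -0.15.

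In the plasminogen system, to which Serpinb2 belongs, 1 of 15 genes was higher and 2 were lower, against 2.27% and 7.83% of all genes, a count near the background. The list's median log2 ratio was -0.10. Plaur, the urokinase receptor, was 1.68-fold higher (142 CPM in members, 84.6 CPM in other cells) but 1.47-fold when depth-matched, under the limit. F3, tissue factor, was 2.30-fold lower (102 CPM in members, 234 CPM in other cells), and Serpine2, protease nexin 1, 1.51-fold lower. At matched depth F3 was the 1 call left, with Serpine2 1.33-fold lower. Of the other Serpinb genes and neighbours of Serpinb2, 3 reached the level, and Serpinb1a was the 1 called (20.3 CPM in members, 35.8 CPM in other cells), a call lost at matched depth (1.47-fold lower).

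Chemokine genes were called in both directions. Of 7 CXC chemokine genes, Cxcl3 and Cxcl2 (1.77-fold; 281 CPM in members, 158 CPM in other cells) were higher. Cxcl14, Cxcl16, Cxcl12 and Cxcl10 were lower, Cxcl12 at 438 CPM in members and 857 CPM in other cells. Cxcl1 stood at 2543 CPM in members and 2012 CPM in other cells. Cxcl5, on which cells had been removed, stood at 812.5 CPM in members and 589.6 CPM in other cells. The genes Cxcl1, Cxcl2, Cxcl3 and Cxcl5 are close relatives in 1 cluster on chromosome 5. Of 4 CC genes, Ccl2, which draws monocytes, was 1.60-fold higher (4880 CPM in members, 3046 CPM in other cells) and 1.33-fold when depth-matched, and Ccl11, eotaxin, was 1.65-fold lower and 1.44-fold when depth-matched, so that neither passed the limit at matched depth. Of the 7 IL-6 family genes, 5 were lower and none higher. At matched depth 4 of 6 were lower, where 225 of 4899 genes were lower over all. Il6 stood at 103 CPM in members and 205 CPM in other cells, its feedback gene Socs3 at 228 CPM in members and 476 CPM in other cells, and Il11ra1 at 283 CPM in members and 514 CPM in other cells. Of 6 acute-phase genes 5 were lower, with a median log2 ratio of -2.05.

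Of 10 AP-1 factor genes, Fosl1 was the 1 higher, and Fos, Jun, Jund and Atf3 were lower, Fos at 936 CPM in members and 1653 CPM in other cells. Against depth-matched cells Atf3 alone of these 4 stayed past the limit, and Fosl1 did too. Egr1 and Spry1, an early response gene and an ERK feedback inhibitor, were the 2 called of 9 ERK feedback genes, both lower. Hbegf, an EGF receptor ligand and 1 of 2 genes tested in its family, was 1.87-fold higher (37.2 CPM in members, 19.8 CPM in other cells). Of the growth factor genes, Igf1 and Angptl2 were lower. Hmga1 was 1.80-fold higher. In the list of HMGA and fetal growth genes, 2 of 10 reached the level, Hmga1 and the marker gene Hmga2, and both were called higher. With 2 genes tested, that list is too short to set against the share of all genes.

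Genes of DNA replication were higher in the members, and fewer of them passed the limit at matched depth. Of 14 S phase genes, 10 were called higher and none lower (median log2 ratio 0.62): Mcm2 to Mcm7, the replicative helicase, Rrm1, Gins2, Ung and Uhrf1. Mcm5 stood at 102 CPM in members and 51.9 CPM in other cells, and Uhrf1, which keeps DNA methylation through replication, at 39.8 CPM in members and 15.9 CPM in other cells, 2.51-fold higher (2.11 to 2.98). Against depth-matched cells 1 of the 14 was called, Uhrf1 at 1.77-fold, where 72 of 4899 genes were higher over all. The list's median was then 0.27. Outside the list, Hells, a chromatin remodeller of dividing cells, was 2.20-fold higher and 1.59-fold when depth-matched. With every cell thinned to 2500 UMIs, 51.2% of members (46.3 to 56.0%), 32.8% of other cells (31.2 to 34.5%) and 46.9% of cells rich in Cxcl5 (43.8 to 50.1%) had at least 2 S phase UMIs. Unthinned, the shares were 86.6% of members, 67.7% of other cells and 87.2% of cells rich in Cxcl5. At least 2 G2/M UMIs were found in 9.0% of thinned members (6.45 to 12.2%), 4.07% of other cells (3.40 to 4.83%) and 2.96% of cells rich in Cxcl5 (1.99 to 4.22%) after thinning, and in 36.7% of members, 18.3% of other cells and 26.2% of cells rich in Cxcl5 before it. Of the G2/M list 1 gene reached 20 CPM, Hmgb2, and it was not called. No phase was read from these shares. Of 17 ribosome biogenesis genes 1, Nop16, was called (1.5-fold), although the list's median log2 ratio was 0.40; it was 0.22 and no gene was called when depth-matched. Of 6 genes of cyclins and CDK inhibitors, Ccnd1, cyclin D1, was the 1 called, 1.51-fold higher and 1.31-fold when depth-matched.

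Matrix genes that were called were all lower in the members. Of 22 interstitial matrix genes 12 were lower and none higher, with a median log2 ratio of -0.74; they were Dcn (3067 CPM in members, 7609 CPM in other cells), Lum, Eln, and fibrillar and type VI collagens among others. Of 10 basement membrane genes 5 were lower, among them Col4a1 (93.2 CPM in members, 286 CPM in other cells), Col4a2, Col15a1 and Lama2. Depth-matched, 8 of 22 and 4 of 10 were lower and none was higher, where 225 of 4899 genes were lower over all. The list of resident progenitor genes had 10 of 18 lower, with a median of -0.66, and 7 when depth-matched. Pi16, a marker of adventitial progenitors, lost its call (331 CPM in members, 546 CPM in other cells, 1.65-fold lower, and 1.11-fold when depth-matched). Cd34 stood at 422 CPM in members and 500.2 CPM in other cells and was not called. Fewer called genes came from the TGF-beta and BMP list (4 of 10 lower), matrix proteases (4 of 12 lower), YAP and SRF targets (5 of 15 lower), heat shock genes (3 of 8 lower, led by Hspa1a at 474 CPM in members and 1185 CPM in other cells), metallothionein and iron genes (2 of 6 lower), hyaluronan genes (1 of 5 lower), integrins (1 of 4 lower), interferon response genes (1 of 11 lower) and ATF4 and amino acid genes (1 of 13 lower). Over all genes 7.83% were lower. The interferon and ATF4 lists, with 1 call of 11 and of 13, are near that share. The hyaluronan and integrin lists, with 5 and 4 genes tested, are too short to set against it. Of the lists in this comparison, heat shock alone had a median log2 ratio above the 0.01 of all genes. Its median was 0.13, so the 3 lower genes do not describe that list. At matched depth 2 TGF-beta and BMP genes, 3 proteases, 4 YAP and SRF targets, 3 heat shock genes, 1 metallothionein and iron gene and 1 ATF4 and amino acid gene were lower, and no hyaluronan, integrin or interferon gene was. NRF2 targets had 1 of 8 higher, Gsr, and none of 14 glycolysis genes was called.

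**Figure D4:**
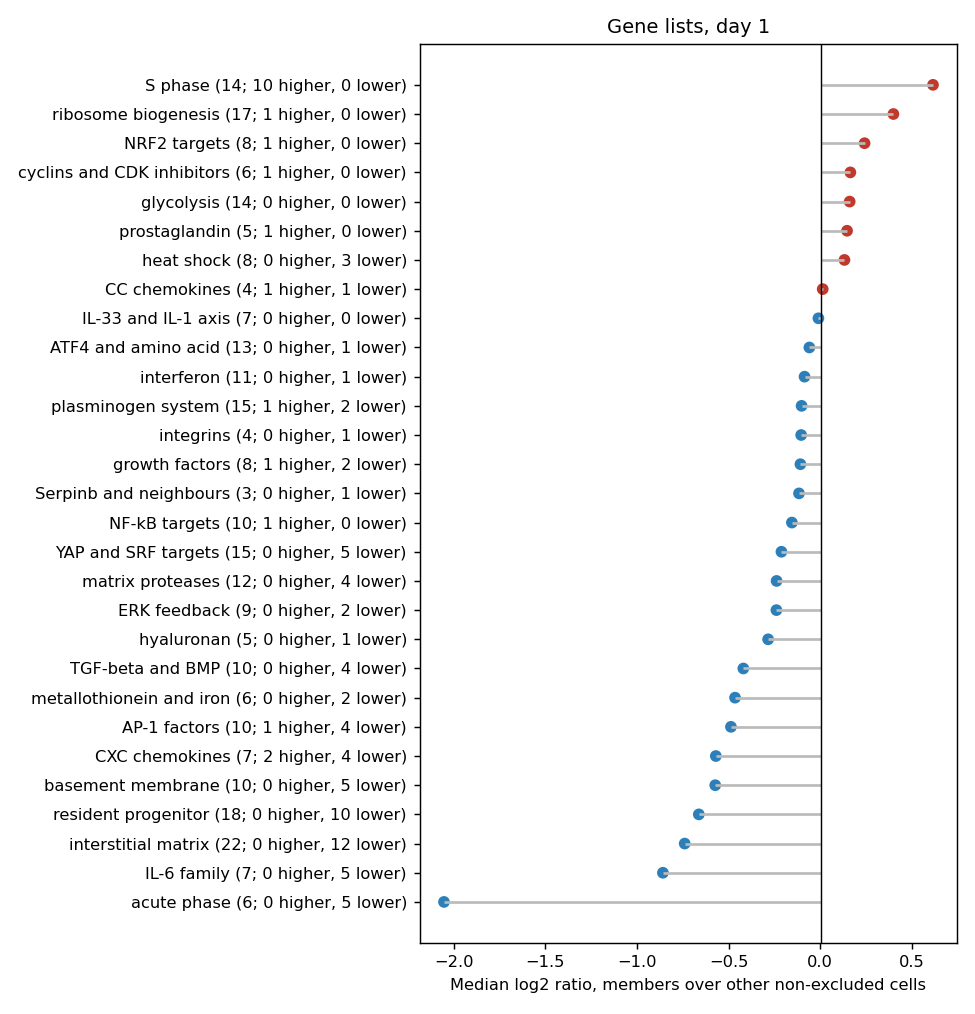
Median log2 ratio of members over other cells (x axis) for each gene list with at least 3 genes tested, measured from the median of all genes tested (vertical line at 0.01); brackets give the genes tested and those called higher and lower. S phase genes are farthest to the right at 0.62, and acute-phase genes farthest to the left at -2.05.

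Members with Serpinb2 alone and members with Il1rl1 alone differed in some of these genes. Cxcl3 stood at 237 CPM in the 53 cells with Serpinb2 alone and 78.8 CPM in the 306 with Il1rl1 alone, a ratio of 3.01 (2.45 to 3.68), but 35.3% of the counts in the first group came from 1 cell. Il33 stood at 281 CPM in cells with Serpinb2 alone and 108 CPM in cells with Il1rl1 alone, a ratio of 2.60 (2.17 to 3.11), and the largest single cell gave 10.8%. Lower in cells with Serpinb2 alone were Penk (38.0 CPM, against 149 CPM with Il1rl1 alone), Il6 (28.9 CPM, against 117 CPM with Il1rl1 alone) and Nfkbia (758 CPM, against 1458 CPM with Il1rl1 alone). Ptgis was nearly level, at 538 CPM in cells with Serpinb2 alone and 560 CPM in cells with Il1rl1 alone, as was Dcn, at 3267 CPM in cells with Serpinb2 alone and 3206 CPM in cells with Il1rl1 alone. Hmga2 stood at 21.3 CPM in cells with Serpinb2 alone and 45.6 CPM in cells with Il1rl1 alone, a ratio of 0.47 (0.25 to 0.81).

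Sbsn, Dmkn and Krtdap, neighbouring genes on chromosome 7 known from the epidermis (chr7:30751471-30756134, chr7:30763756-30781063 and chr7:30787896-30791097), were grouped after their values were seen, since 2 of them were among the 15 highest. Sbsn stood at 399 CPM in members, 182 CPM in other cells and 62.0 CPM in cells rich in Cxcl5, and Krtdap at 136 CPM in members and 62.0 CPM in other cells. At least 3 summed UMIs of the 3 genes were found in 33.2% of members (28.7 to 37.9%), 13.2% of other cells (12.01 to 14.4%) and 6.40% of cells rich in Cxcl5. The share was 56.1% of the 66 members with both Il1rl1 and Serpinb2. After thinning, 34.8% of members and 16.8% of other cells had at least 1 UMI. Without all such cells, the log2 ratio of Sbsn was 0.30 and that of Krtdap -0.034, whereas Cxcl3 stood at 2.45, Ptgis at 1.46, Wnt2 at 1.55, Hmga2 at 1.97 and Fosl1 at 1.10.

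Cells rich in Cxcl5, set aside by the rule, are the day 1 cells nearest to the members in depth (median 12023 UMIs). Members differed from them in 285 genes higher (5.88%) and 257 lower (5.30%) of 4845 tested. Fosl1 (a ratio of 1.05, 0.94 to 1.17) and Hmga1 (1.05) were nearly level between members and these cells, and Cxcl3 was lower in members (0.72, 0.66 to 0.79). Higher in members were Ptgis (3.40-fold, 3.21 to 3.61), Wnt2 (3.53-fold, 3.14 to 3.96), Slco2a1 (2.15-fold, 1.93 to 2.40), Penk (2.32-fold) and Uhrf1 (2.43-fold). Il6 was 4.43-fold lower in members (103 CPM in members, 455 CPM in cells rich in Cxcl5), and Saa3 17.2-fold lower. Of the 985 cells rich in Cxcl5, 165 also met the limit of 3 UMIs (16.8%, 14.47 to 19.2%), and so did 39 of 183 tenocyte marker cells and 3 of 97 mural marker cells.

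The contrast was read again in these cells, which the rule had left out of the members. They share the library and the free RNA of the members, and the choice on Il1rl1 and Serpinb2 is the same, so this is no independent sample. Of the 111 genes called higher in members besides the 2 of the rule, 93 could be tested within the cells rich in Cxcl5, and 54 (58.1%) were higher in the 165 cells meeting the limit than in the 820 that did not, where 4.00% of all genes were called higher. Of 308 lower genes tested, 191 (62.0%) were lower, against 6.64% of all genes. Ptgis stood at 423 CPM in those meeting the limit and 111 CPM in those that did not, Cxcl3 at 524 CPM in those meeting it and 89.5 CPM in those that did not, and Hmga2 at 58.0 CPM in those meeting it and 19.6 CPM in those that did not. Among tenocyte marker cells, 47 of 58 genes were higher (19.6% of all genes) and 250 of 331 lower (26.5%), in cells that differed more in depth (median 12195 UMIs in the 39 and 6004.5 in the 144). Ptgis was 4.02-fold higher there and Fosl1 8.80-fold, whereas Cxcl3 had no UMI in either group and Smoc2 was 1.82-fold higher, opposite to its direction in the members.

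Across the 5 libraries, cells meeting the rule were frequent at day 1 and rare otherwise. The rule took 0 of 1900 non-excluded cells of the quiescent library, 425 of 3551 at day 1, 23 of 2370 at day 2 (0.970%), 7 of 3808 at day 4 (0.184%) and 1 of 2424 at day 14 (0.0413%). Il1rl1 stood at 0.821 CPM in the quiescent library, 143 CPM at day 1, 4.84 CPM at day 2, 3.16 CPM at day 4 and 0.562 CPM at day 14. Serpinb2 stood at 0.274, 44.9, 1.07, 0.233 and 0.0803 CPM in the same libraries, the first from 2 UMIs and the last from 1. The ligand gene Il33 stood at 177, 155, 200.01, 240.1 and 173 CPM. Over these non-excluded cells, day 1 was the highest for both genes of the rule and the lowest for Il33. The levels leave out the cells rich in Cxcl5, 985 at day 1 and 37 at day 2. In those day 1 cells Il33 stood at 184 CPM where the limit of 3 UMIs was met and 271 CPM where it was not. The place of day 1 for Il33 therefore holds for non-excluded cells only.

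Depth differed among the libraries, which held 2170, 4820, 2556, 4140 and 3527 barcodes with 8043771, 44552329, 32843041, 32283940 and 17612150 UMIs in the order quiescent to day 14, so shares were compared at 2500 UMIs per cell. At least 1 UMI of Il1rl1 or Serpinb2 was then found in 0.265% of non-excluded cells of the quiescent library (0.0722 to 0.677%), 12.5% at day 1 (11.5 to 13.7%), 0.886% at day 2 (0.549 to 1.35%), 0.561% at day 4 (0.347 to 0.856%) and 0.0494% at day 14 (0.00125 to 0.275%). Thinning left out 390, 60, 0, 63 and 398 cells that were too shallow. Mural marker cells, a type in which neither gene is a marker, gave 3.57% at day 1 (3 of 84 cells, 0.743 to 10.1%), where their unthinned median depth was 3028 UMIs against 7882 in non-excluded cells, and 2.33% at day 2 (1 of 43). The 3 positive mural marker cells at day 1 kept at least 2 UMIs after thinning, so they are no plain measure of free RNA. At days 2 and 4 the mural shares rested on 1 cell each (1 of 107 at day 4, 0.935%), too few to set a background for the non-excluded cells. At day 1 the interval of the non-excluded cells lay above that of the mural marker cells. Tenocyte marker cells gave 21.3% at day 1 (38 of 178, 15.6 to 28.1%), 0 of 100 at day 2, which allows up to 3.0% by the limit of 3 counts of the total, and 1.66% at day 4 (3 of 181).

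**Figure D5:**
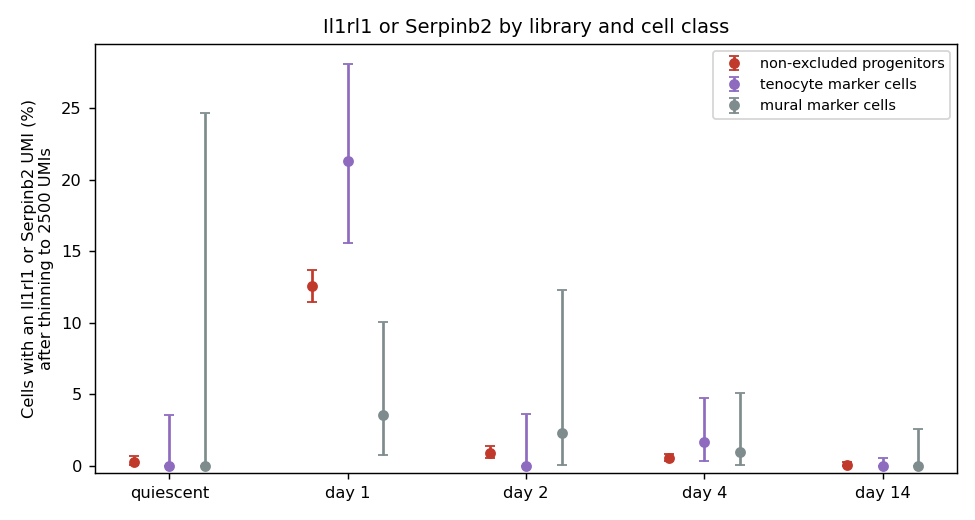
Share of cells with at least 1 UMI of Il1rl1 or Serpinb2 after thinning every cell to 2500 UMIs (y axis, percent, Clopper-Pearson 95% interval) in each library (x axis), for non-excluded progenitors, tenocyte marker cells and mural marker cells. At day 1 the shares are 12.5%, 21.3% and 3.57% in that order, and in every other library the non-excluded progenitors are below 1%.

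Of the 15 genes highest in the members among those with at least 50 CPM, 10 had their highest level over all non-excluded cells at day 1. The other 5 were highest elsewhere: Krtdap, Dkk2 and Oaf in the quiescent library, Mcm5 at day 2 and Penk at day 14. Penk stood at 139, 59.6, 39.4, 54.9 and 164 CPM from the quiescent library to day 14, and Dkk2 at 83.2, 33.8, 36.9, 27.1 and 45.3 CPM. Highest at day 1 were Ptgis at 69.8, 270.01, 45.6, 69.4 and 65.1 CPM, Aldh1a3 at 61.3, 355, 30.8, 50.2 and 71.2 CPM, and Fosl1 at 1.23, 55.6, 14.7, 1.96 and 0.803 CPM. Hmga2, a marker gene of the members, stood at 0.137, 17.1, 3.28, 1.13 and 0.482 CPM. Since each time point is 1 library, time and library cannot be told apart.

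The 23 cells that met the rule at day 2 were the only ones elsewhere that could be compared. They were deeper (median 21326 UMIs) than the other 2347 non-excluded cells of that library (median 10996), and no cell of day 1 entered. Of the 111 genes, 77 reached 20 CPM at day 2 and 53 were higher in these cells (68.8%), where 12.8% of all genes were called higher; 1 was called lower. Of 367 lower genes tested, 187 were lower (51.0%), against 10.5% of all genes, and 6 were called higher. With other cells matched for depth in both libraries, 33 of 51 were higher (64.7%), where 10.3% of all genes were called higher. Fosl1 stood at 48.0 CPM in the 23 cells and 14.1 CPM in the others at day 2, 3.40-fold higher (2.15 to 5.12), and Hmga2 at 22.0 CPM in the 23 cells and 2.97 CPM in the others. Slco2a1 was 3.90-fold higher (2.72 to 5.44) and Ptgis 2.15-fold (1.57 to 2.86). Nfkbia, at 748 CPM in the 23 cells and 793 CPM in the others, was not called at day 2. Dcn was lower again, at 2454 CPM in the 23 cells and 6877 CPM in the others. With 23 cells of 1 library, these values compare those cells only.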

How the data were processed

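Single-cell 3' transcripts of tdTomato-sorted muscle cells were measured in 5 libraries, 1 per group, with the 10x Chromium v2 chemistry, per the labels' protocols. The authors deposited raw UMI counts per gene and barcode, and whole numbers with a different total in each library were found in every table. Cell Ranger and mm10 are named in the submitters' processing notes; the version, the cell calling rule and the use of strand in counting were not given in the sources used here.

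Members, gene lists and marker lists were chosen with earlier results of these data known. Cells were kept with 500 genes and no more than 10% mitochondrial UMIs. Counts were summed over members and over other cells and scaled to CPM. A gene was tested at 20 CPM in the higher group and called at 1.5-fold. Log2 ratios carry a prior of 1 CPM. For depth, other cells were weighted to the members' deciles of UMIs, and shares were compared after thinning to 2500 UMIs. With 1 library per group no p-value was computed. Between 8 and 26 barcodes were shared by each pair of libraries, and 6 members shared theirs with another library. Scrublet (scanpy 1.11.5) called 0 of 4820 barcodes as doublets, where 3.86% was the expected share. The automatic call therefore does not tell whether doublets are present. None was removed, and an alternative dropped the 186 highest scores.

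The naming rule took 15 genes at each end of the log2 ratio, where the higher group reached 50 CPM, and passed over genes of the rule and mitochondrial, ribosomal protein, haemoglobin and predicted genes. It added the members' marker genes, Il33, Il1rap and up to 4 genes of largest ratio from each of 32 lists. Other genes in the text were chosen after their values were seen. One gene that the rule named is not reported here. Alternatives changed the limit and genes of the rule, the filters, the scaling (edgeR 4.0.16 and DESeq2 1.42.0 in R 4.3.3, for scaling factors only), the weighting of cells and the fold and level limits. The calling code was tested on simulated counts. Python 3.11.15, numpy 2.4.6, scipy 1.17.1 and pandas 2.3.3 were used.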

Additional observations from a re-analysis of the deposited data

Results flagged for a closer look

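Mmp19, a matrix metalloproteinase gene, was called in opposite directions at the 2 times that could be compared. At day 2 it was higher in the 23 cells meeting the rule than in the other non-excluded cells, with a log2 ratio of 0.66, whereas at day 1 it stood at 29.6 CPM in members and 44.8 CPM in other cells, 1.51-fold lower in members. The day 1 ratio lies close to the limit of 1.5. Mmp19 was 1 of 6 genes called higher at day 2 among the 367 lower genes of day 1 tested there. Of all genes tested at day 2, 12.8% were called higher. The difference between the days was not tested, since each day is 1 library.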

How the results depend on the processing

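No paired analysis was possible because each group was 1 library and members and other cells came from the same one. The members' share of 11.97% was 13.6% with 2 UMIs as the limit, 8.87% with 5, 10.1% with Il1rl1 alone, 2.53% with Serpinb2 alone and 9.47% without cells holding Dmkn, Sbsn and Krtdap (chosen after seeing the data). Genes higher in members, 113 at first, numbered 270 with Serpinb2 alone, 72 against depth-matched cells, 178 with equal weight per cell, 28 at 2-fold, 286 at 5 CPM and 1561 with no filter. Genes lower, 389 at first, numbered 225 against depth-matched cells, 149 at 2-fold, 924 at 5 CPM and 5024 with no filter. In the other settings, 2 of them (without the deepest cells, and against cells with no UMI of either gene) also chosen after seeing the data, 77 to 129 were higher and 344 to 561 lower. Of genes called at day 1, 33 of 51 tested, in place of 53 of 77, were higher at day 2 when depth was matched. After thinning, the share of cells with at least 2 UMIs of Il1rl1 or Serpinb2 was 7.53% on day 1, 0.253% on day 2 and 0.107% on day 4, and 0% in the quiescent and day 14 libraries. Thinned to 1500 UMIs, 9.997% on day 1 and 0.263% on day 4 had at least 1. The log2 ratio of Krtdap was -0.034 without cells holding Dmkn, Sbsn and Krtdap. It was the 1 reversal, in a setting that removes cells by Krtdap itself. Only genes called at first could be labelled reversed, and a change of sign in any other named gene was counted by its size. Of all 2320 values (145 named genes in 16 settings), 1837 moved within counting error and 482 moved further. The causes of these shifts were not tested. TMM and DESeq2 factors moved all log2 ratios by 0.02 and 0.03. Depth limits low genes such as Il1rap, and a cell without a UMI may still express either gene of the rule.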
